A study of Mus musculus with 9 samples.

Results

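The transition from In/B spermatogonia to RA-sufficient preleptotene (PL) spermatocytes was measured in 6 of the 9 mRNA libraries of the series, 3 of each cell type, and 15001 of the 24505 genes in the count table had enough reads to be tested. The comparison asks how germ cells at the end of spermatogonial development differ, across all genes, from cells at the entry into meiosis. In/B spermatogonia, the last 2 generations of differentiating spermatogonia before meiosis (intermediate and type B), came from testes at postnatal day (P) 17, and PL spermatocytes came from testes at P19. All sorted cells carried a Uchl1-eGfp transgene, from a C57BL/6 line outcrossed with CD-1 mice. All groups received WIN18,446 (WIN), an inhibitor of retinoic acid (RA) synthesis, daily from P1 (100 µg per gram), and then 10 µl of RA at 10 µg per µl under the skin at P11, which starts spermatogonial differentiation in step. WIN was stopped at P10 by the study's description and at P11 by the sample records. In the RA-sufficient testes no WIN followed the RA injection. The 3 remaining libraries were of PL spermatocytes from RA-deficient testes at P19, where WIN was continued after the RA injection, and their values are given only to show where the RA-sufficient cells differ.

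The model has limits that bear on every value. EGFP under the Uchl1 promoter is bright in spermatogonia and dim in PL spermatocytes, and cells were sorted by this brightness, so Uchl1 itself is no finding. Each library came from cells pooled from littermates. In such bulk samples a lower mRNA level can come from fewer cells of a type or from less RNA per cell, and these cannot be told apart.

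Spermatogonia divide by mitosis with incomplete cytokinesis and amplify the germ line before meiosis. At the preleptotene stage the cell replicates its DNA for the last time and then enters a long prophase in which homologous chromosomes pair and recombine, with no further mitosis. Germ cells in the testis also change their energy supply along this path. Spermatogonia take up glucose, whereas spermatocytes depend on lactate that Sertoli cells provide, and several enzymes of energy metabolism have testis-specific isoforms encoded by retrogenes that are used from the spermatocyte stage on.

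Total counts were 16872425 to 26684393 per In/B library and 12612959 to 21833333 per PL library. Replicate 1 of In/B and replicate 1 of PL stood apart from the other 2 libraries of their groups on the second principal component, which held 6.99% of the variance against 84.6% for the first. CPM, counts scaled to 1000000 reads after TMM scaling of all 9 libraries, is the unit of level throughout, given as mean ± SD over n = 3 libraries or by library in the order of the replicate numbers. The study's methods name independent RNA preparations, and p-values measure the spread between these libraries.

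Most markers of the labelled cells moved as the labels say. Summed over 8 markers of differentiating spermatogonia, In/B libraries had 5144, 3486 and 3446 CPM and PL libraries 663, 882 and 749 CPM, and 5 of the 8 were called lower and 1 higher. Most of this sum was Uchl1, with 3653, 2391 and 2337 CPM in In/B and 425, 610 and 521 CPM in PL. Cells were sorted by its promoter, so the fall of the sum is largely no finding. The other markers called lower were Kit, Sohlh1, Dmrt1 and Dnmt3b. Summed over 13 preleptotene and leptotene markers, the values were 1798, 2964 and 2974 CPM in In/B and 6286, 7910 and 8120 CPM in PL, and 9 of the 13 were called higher and 0 lower. Markers of undifferentiated spermatogonia summed to 608, 342 and 353 CPM in In/B and to 198, 329 and 299 CPM in PL, with 3 of 14 called higher and 5 lower. The groups did not overlap in any of these 3 sums.

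Markers of other cells moved as well. All 14 tested Sertoli cell markers were called higher in PL, and their summed level was 208, 590 and 437 CPM in In/B against 5516, 4005 and 4055 CPM in PL, an 11-fold difference of means (7.85-fold without both replicates numbered 1). In RA-deficient PL libraries the same sum was 586, 609 and 913 CPM. Leydig cell markers rose in 5 of 6 tested (Insl3 had at most 3 counts in each of the 6 libraries), from summed levels of 11.1 to 23.3 CPM to levels of 112 to 126 CPM. Of 10 peritubular and stromal markers 7 were called higher and 1 lower, with sums of 112 to 160 CPM in In/B and 930 to 1266 CPM in PL. Most of the rise of this sum was Sparc, with 15.1, 83.5 and 58.2 CPM in In/B and 1170, 833 and 848 CPM in PL. The other markers called higher had PL means of 9.37 to 28.9 CPM, and Col1a1 fell from 56.2 to 11.6 CPM. Pachytene markers summed to 177 to 278 CPM in In/B and to 2058, 1087 and 1079 CPM in PL (10 of 12 called higher), and spermatid markers to 13.8 to 31.5 CPM and to 379, 138 and 123 CPM (6 of 8 tested called higher, 1 lower). The spermatid ratio of means was 8.77 with all libraries and 4.41 without both replicates numbered 1, and Prm2 had at most 3 counts in each library. Most of the spermatid sum in PL was Crisp2, at 313, 88.0 and 76.1 CPM. Of the 15 spermatid markers 8 had enough reads to be tested, and Prm1, Tnp1, Tnp2 and Akap4 did not. Macrophage and blood cell markers were called higher in 5 of 6 tested and lower in none, from summed levels of 4.30 to 5.17 CPM in In/B to 9.95 to 19.4 CPM in PL. Endothelial markers reached at most 12.7 CPM in any of the 6 libraries, with 1 of 5 called higher and 1 lower. The part of Sertoli and other somatic RNA, and of later spermatocytes, in the rises given below was not tested. For that reason the RA-deficient PL values, from libraries whose Sertoli marker sums were near those of In/B, stand beside many of them.

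**Figure D1:**
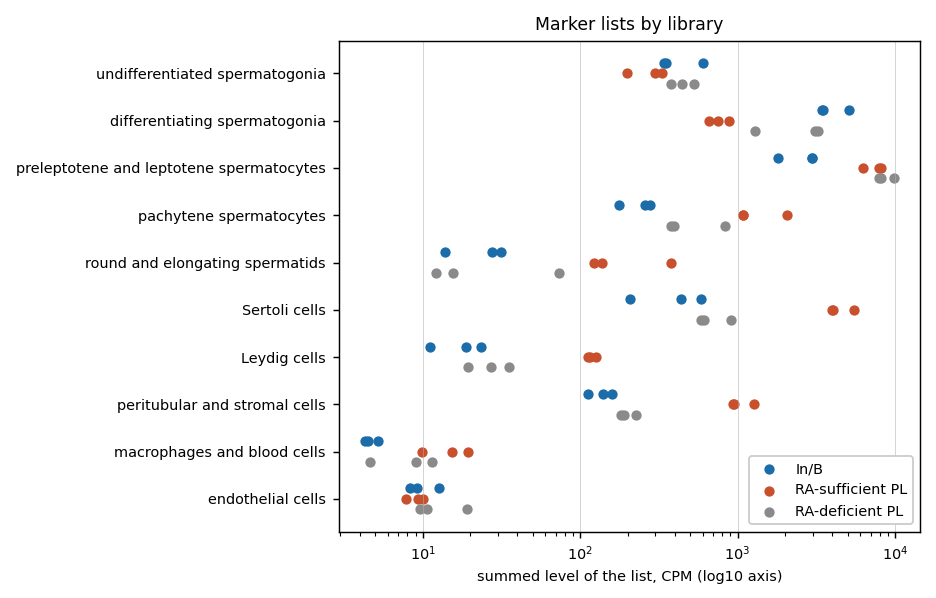
Summed level of each marker list by library, in CPM on a log10 axis, with 1 point per library for In/B, RA-sufficient PL and RA-deficient PL. The 14 Sertoli markers sum to 208 to 590 CPM in In/B and to 4005 to 5516 CPM in RA-sufficient PL, while RA-deficient PL libraries lie at 586 to 913 CPM.

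Of the 15001 genes tested, 6803 (45.4%) were called, which means that the level more than doubled or fell to under 0.5 of its value (a log2 fold change beyond 1 or -1) with an adjusted p below 0.05. The p-values are from the quasi-likelihood test of edgeR, with Benjamini-Hochberg adjustment over all genes. Higher in PL were 3908 genes (26.1%) and lower were 2895 (19.3%). Without both replicates numbered 1, 7015 genes were called, 3991 higher and 3024 lower. Rises and falls were unlike in the level at which they began. Genes called higher had a median of 3.00 CPM in In/B and 17.9 CPM in PL, and genes called lower a median of 39.1 CPM in In/B and 10.5 CPM in PL. Among called genes 2385 rose and 970 fell by more than 4-fold, and 554 rose and 64 fell by more than 16-fold. A mean level of 1 CPM or more was reached by 13242 genes in In/B and 14130 in PL, and one of 100 CPM or more by 2937 and 2622. No gene with at least 5 CPM in every library of a group had at most 3 counts in every library of the other. The libraries of the groups did not overlap for 10765 of the tested genes (71.8%).

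**Figure D2:**
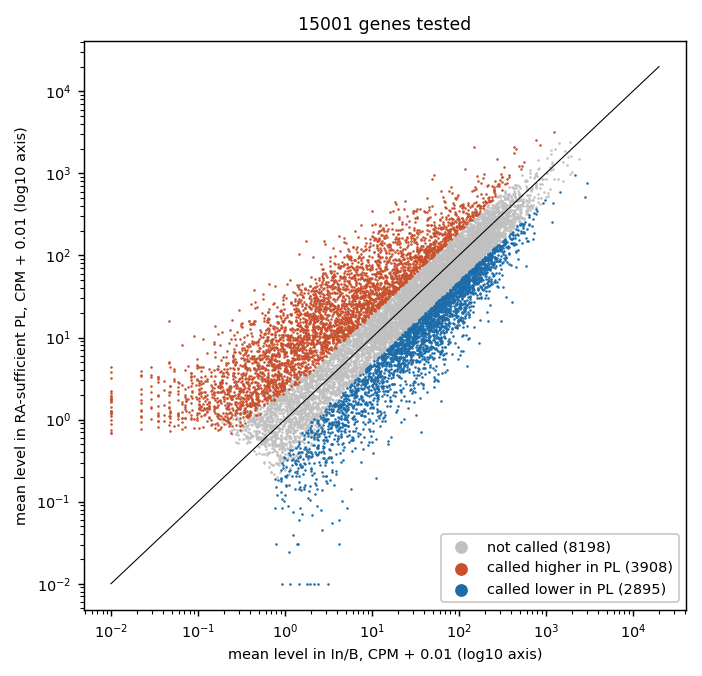
Mean level of each of the 15001 tested genes in In/B (x axis) and in RA-sufficient PL (y axis), in CPM plus 0.01 on log10 axes, with 1 point per gene. The 3908 genes called higher lie above the diagonal and reach down to the lowest In/B levels, and the 2895 called lower lie below it.

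The largest rises among genes with at least 10 CPM, groups that did not overlap and no shared exon bases were of unlike kinds. Ibsp (chromosome 5, 104728190 to 104740488 in mm9), which encodes the integrin-binding sialoprotein known from bone, had 0, 3 and 0 counts in In/B and 30, 410 and 473 counts in PL, a ratio of rates of 361 with an exact interval of 123 to 1752 for counting error only. PL replicate 1 was far below the other PL libraries. Sowahd (chromosome X, 34588840 to 34590413) had 1, 5 and 0 counts in In/B and 139, 141 and 294 in PL, a ratio of 113 with an interval of 51.8 to 310. Its RA-deficient PL libraries had 0 counts each. In/B replicate 2 held all In/B reads of Ibsp and most of those of Sowahd, and without it the fitted log2 fold changes of edgeR moved from 8.28 to 11.16 and from 6.79 to 8.26. The value of Ibsp then stands against libraries at 0 counts and is no bound. 1700034J05Rik had 0.112, 0.221 and 0.112 CPM in In/B and 12.6, 17.2 and 11.8 CPM in PL, with a log2 fold change of 6.46 ± 0.42 (SE). Rad51ap2, a gene of meiotic recombination, had a log2 fold change of 6.45 ± 0.37 (SE). Oit3 (chromosome 10, 58885706 to 58904526) had 0.279, 0.738 and 0.281 CPM in In/B and 38.8, 39.8 and 34.5 CPM in PL, and a log2 fold change of 6.39 ± 0.37 (SE, edgeR adjusted p of 1.10e-05). Without In/B replicate 2 the value of Oit3 was 7.06. RA-deficient PL had 0.244, 0 and 0 CPM of Oit3. Tap2, a subunit of the peptide transporter that loads MHC class I molecules, completes the set and is described with the antigen processing genes.

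Falls were ranked among genes with at least 10 CPM, groups that did not overlap and no exon bases shared with another gene. The largest in this set were those of Khdrbs2, Plk5, Cpne2, Usp13, Bcl11b and Tshz3, while over all genes tested the log2 fold change reached -8.89. Khdrbs2 (chromosome 1, 32229651 to 32714583), an RNA-binding splicing regulator, had 11.1, 11.1 and 10.8 CPM in In/B and 0, 0.422 and 0.131 CPM in PL. Its log2 fold change was -5.78 ± 0.63 (SE, edgeR adjusted p of 9.71e-05), and no PL library came near the In/B level. With so few PL reads the size of the fall depends on single libraries, and without PL replicate 2 it was -6.96. Tshz3 (chromosome 7, 37483137 to 37558476), a zinc finger homeodomain factor, had 29.0, 34.3 and 32.5 CPM in In/B and 0.811, 1.45 and 1.09 CPM in PL and a log2 fold change of -4.77 ± 0.28 (SE). For Cpne2, a calcium-dependent membrane-binding copine, the log2 fold change was -5.16, for the deubiquitinase Usp13 -4.88 and for the transcription factor Bcl11b -4.84. In RA-deficient PL, Bcl11b stood at 8.97, 9.07 and 1.43 CPM against 1.33, 0.121 and 0.350 CPM in RA-sufficient PL, so replicate 3 of those libraries was close to RA-sufficient PL and the others were not. The fall of Bcl11b was -5.99 without PL replicate 1, and that of Usp13 was -5.48 without PL replicate 2.

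Cell cycle genes fell more often than they rose. Of 225 tested genes in 6 lists, 92 were called lower (40.9%, against 19.3% of all genes) and 23 higher (10.2%, against 26.1%), with a median log2 fold change of -0.63 against 0.04 for all genes. The G2/M and mitosis list had the highest share of falls among the 6, with 34 of 58 genes lower (58.6%) and 2 higher and a median of -1.13. The p53 pathway and apoptosis list had 40.0% lower, G1 and G1/S regulators 39.4% (13 of 33, and 3 higher), DNA replication 37.7% (23 of 61, and 4 higher), condensins 37.5% and the germline and noncanonical list 19.4%.

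**Figure D3:**
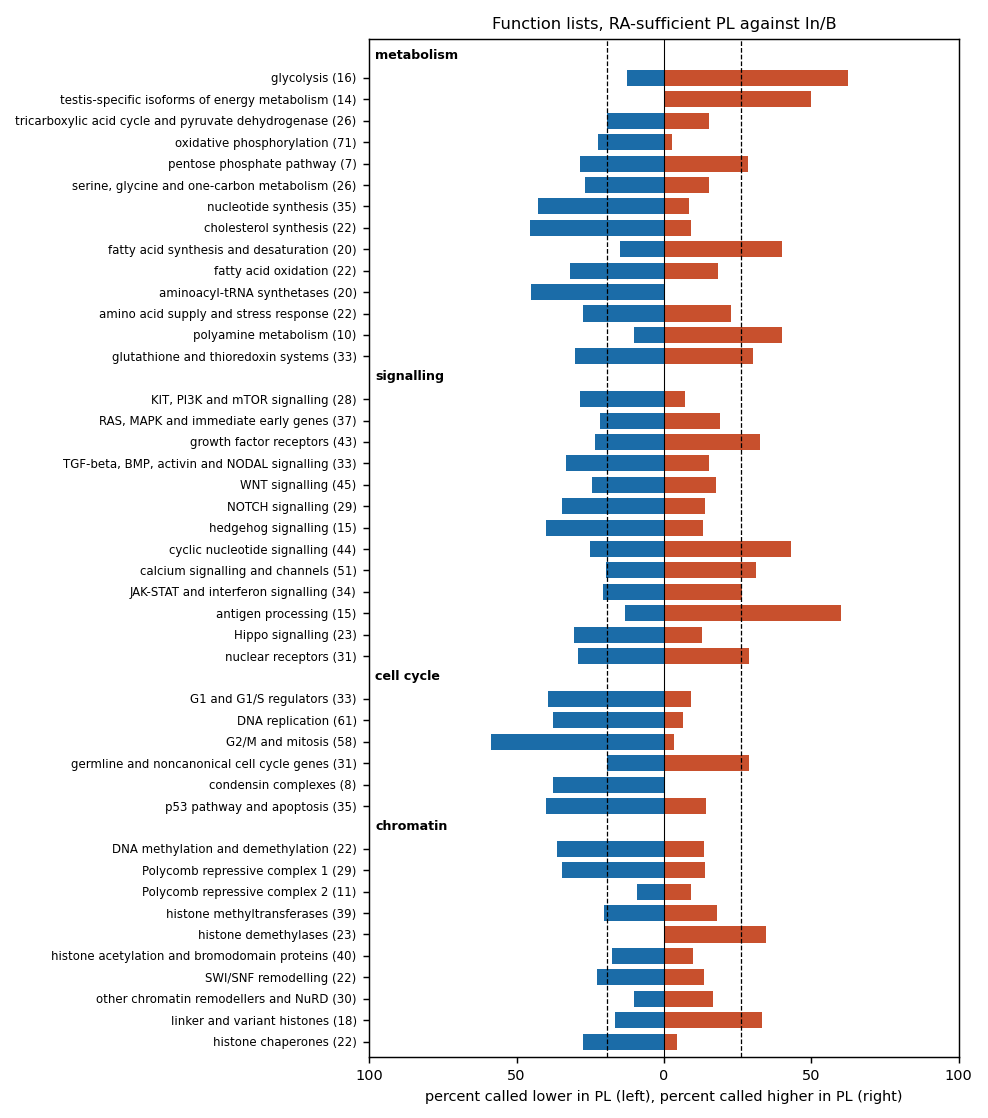
Percent of tested genes called higher (bars to the right) and lower (bars to the left) in RA-sufficient PL against In/B, for each of the 43 function lists, with the number of genes tested beside each name. Dashed lines mark the 26.1% and 19.3% of all genes tested. The G2/M and mitosis list reaches 58.6% lower, and glycolysis (62.5%) and antigen processing (60.0%) have the highest shares called higher.

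Among the regulators of the G1/S step, E2f7, a repressor of E2F target genes, had 114, 144 and 138 CPM in In/B and 7.15, 12.1 and 10.7 CPM in PL. All PL libraries were at a small part of the lowest In/B library, and the log2 fold change was -3.67 ± 0.22 (SE, edgeR adjusted p of 1.10e-05). E2f2, an activator of the same family, fell further, with 75.4, 114 and 107 CPM in In/B and 8.48, 3.80 and 4.20 CPM in PL and a log2 fold change of -4.14 ± 0.33 (SE). E2f1, another activator, had 122, 119 and 120 CPM in In/B and 71.2, 90.4 and 99.5 CPM in PL and was not called (log2 fold change -0.42). Cks1b, an adaptor of the SCF ubiquitin ligase that helps to destroy CDK inhibitors, fell by 2.44 on the log2 scale. The CDK inhibitor gene Cdkn1b rose from 9.36 ± 2.46 to 26.3 ± 4.74 CPM, and cyclin D2 (Ccnd2) rose from 19.2 ± 3.59 to 62.9 ± 14.7 CPM. In RA-deficient PL, Ccnd2 stood at 18.6, 18.5 and 15.1 CPM, close to In/B. Of the other inhibitors, Cdkn1a had 18.6, 35.4 and 39.1 CPM in In/B and 45.7, 18.9 and 18.9 CPM in PL with overlapping groups and Cdkn2d at most 2.28 CPM in any library, and neither was called.

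Genes for replication licensing and the replication forks also fell. Mcm2, a subunit of the replicative helicase, had 504, 443 and 428 CPM in In/B and 57.5, 81.1 and 76.1 CPM in PL, and its log2 fold change was -2.63 ± 0.16 (SE, edgeR adjusted p of 1.10e-05). The licensing factor Cdt1 had 91.4, 72.9 and 66.7 CPM in In/B and 3.91, 12.1 and 9.54 CPM in PL, and fell by 3.12 on the log2 scale. For Pole2 and Pold2, subunits of the leading-strand and lagging-strand polymerases, the log2 fold changes were -3.0 and -2.79. The sliding clamp Pcna was lower by less than the threshold, at 224 ± 16.9 to 130 ± 31.6 CPM (log2 fold change -0.73). The 4 replication genes that rose were Pole4 (1.37), Ticrr (1.18), Chaf1b (1.02) and Pold4 (means of 0.0492 and 1.12 CPM, too few reads in In/B for a fold). Pold4 is below the level set for named genes and was added after its values were seen. Chaf1b lost its call without In/B replicate 1 (0.89) and without PL replicate 3 (0.80).

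In the G2/M and mitosis list 34 genes fell, 2 rose and 22 were not called. Aurkb, the kinase of the chromosomal passenger complex, had 116, 110 and 107 CPM in In/B and 7.81, 14.5 and 9.45 CPM in PL, a log2 fold change of -3.34 ± 0.24 (SE, edgeR adjusted p of 1.61e-05). Cenpa, the centromeric histone H3 variant, had 66.3, 61.2 and 61.1 CPM in In/B and 3.10, 9.40 and 7.97 CPM in PL, with all PL libraries below 10 CPM. Mybl2, the MYB factor that activates G2/M genes, fell from 85.6 ± 2.61 to 14.9 ± 3.00 CPM. The polo-like kinase Plk1 fell by 2.16 and the mitotic kinase Cdk1 by 1.41 on the log2 scale. In contrast, Bub1, a kinetochore checkpoint kinase, rose from 241 ± 10.1 to 700 ± 191 CPM, and Mad1l1, its partner at unattached kinetochores, rose from 23.9 ± 4.65 to 59.8 ± 7.19 CPM. The proliferation marker Mki67 had 1400, 1887 and 1915 CPM in In/B and 723, 1625 and 1497 CPM in PL, with overlapping groups and no call. In RA-deficient PL, Bub1 and Mad1l1 were also high, at 590, 574 and 936 CPM and 163, 179 and 140 CPM.

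Genes of the germline and noncanonical cell cycle list moved both ways, with 9 of 31 higher and 6 lower. Plk5, a polo-like kinase without kinase activity that is known from brain, had 41.3, 36.3 and 32.1 CPM in In/B and 0.368, 1.02 and 0.700 CPM in PL. This was a log2 fold change of -5.63 ± 0.34 (SE, edgeR adjusted p of 1.10e-05). Ccng1, a p53 target, fell from 176 ± 29.8 to 16.4 ± 3.56 CPM. Cyclin B3 (Ccnb3), a meiotic B-type cyclin, had 27.0, 52.9 and 52.3 CPM in In/B and 141, 344 and 358 CPM in PL, and its level in RA-deficient PL was 220, 203 and 552 CPM. PL replicate 1 was the lowest of the PL libraries for Ccnb3 and the highest for cyclin A1 (Ccna1), the cyclin of late spermatocytes, which had 2.46, 2.18 and 3.76 CPM in In/B and 39.0, 25.9 and 20.0 CPM in PL. Fbxo43, an inhibitor of the anaphase-promoting complex in meiosis, rose from 3.64 ± 0.860 to 24.4 ± 10.3 CPM.

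Of 35 tested p53 pathway and apoptosis genes 14 fell and 5 rose. Trp53 itself fell from 120 ± 12.2 to 50.2 ± 1.96 CPM and the pore-forming Bax from 96.7 ± 4.62 to 22.7 ± 2.13 CPM. Bcl2l2, which encodes the survival factor BCL-W, rose from 20.8 ± 4.98 to 81.2 ± 7.00 CPM and stood at 13.1, 12.8 and 7.62 CPM in RA-deficient PL. Among 8 condensin genes 3 fell and none rose, with Ncaph at a log2 fold change of -2.16 and Smc2 at -1.22.

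Promoters of cell cycle genes that fell are shown because these genes share known control sequences, the site of E2F factors and the cell cycle homology region (CHR) of G2/M genes. Each window runs from 250 bases before to 50 after the RefSeq start, on build GRCm38.p6, and is written along the gene's strand with matches in capitals. The E2F letters searched were TTTCGCGC, TTTGGCGC, TTTCCCGC and TTTGCCGC, the CHR letters TTTGAA and TTCGAA, all on both strands. No E2F word contains a CHR word. E2f7 (chr10:110745189-110745488, plus strand) and Pole2 (chr12:69228141-69228440, minus strand) each have 1 E2F match on the reverse strand, Cdt1 (chr8:122567765-122568064, plus strand) has 1 E2F match on the forward strand, Cks1b (chr3:89418242-89418541, minus strand) has 2 CHR matches and Cenpa (chr5:30666636-30666935, plus strand) has 1.
E2f7: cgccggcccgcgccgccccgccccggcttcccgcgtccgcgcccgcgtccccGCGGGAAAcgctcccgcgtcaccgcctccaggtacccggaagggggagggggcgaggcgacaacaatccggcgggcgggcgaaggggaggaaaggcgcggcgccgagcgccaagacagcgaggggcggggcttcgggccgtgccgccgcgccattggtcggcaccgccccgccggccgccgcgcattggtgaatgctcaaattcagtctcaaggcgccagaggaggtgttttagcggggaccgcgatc
Pole2: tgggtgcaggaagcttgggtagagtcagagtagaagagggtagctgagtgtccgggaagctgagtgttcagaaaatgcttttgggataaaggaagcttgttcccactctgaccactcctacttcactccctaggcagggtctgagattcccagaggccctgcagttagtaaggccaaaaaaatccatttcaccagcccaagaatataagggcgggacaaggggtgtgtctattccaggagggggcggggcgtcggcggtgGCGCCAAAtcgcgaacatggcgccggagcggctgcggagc
Cdt1: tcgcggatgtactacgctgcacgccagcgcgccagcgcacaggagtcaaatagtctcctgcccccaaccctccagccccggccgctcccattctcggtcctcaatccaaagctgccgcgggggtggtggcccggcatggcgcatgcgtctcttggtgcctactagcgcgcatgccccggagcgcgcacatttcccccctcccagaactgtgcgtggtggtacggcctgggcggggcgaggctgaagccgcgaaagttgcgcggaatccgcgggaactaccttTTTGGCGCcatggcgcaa
Cks1b: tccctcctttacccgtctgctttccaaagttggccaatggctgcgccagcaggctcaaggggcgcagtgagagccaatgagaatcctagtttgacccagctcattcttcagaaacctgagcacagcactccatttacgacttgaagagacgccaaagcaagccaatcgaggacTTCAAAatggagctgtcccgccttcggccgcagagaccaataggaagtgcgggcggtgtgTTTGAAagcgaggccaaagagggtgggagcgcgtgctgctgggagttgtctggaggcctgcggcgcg
Cenpa: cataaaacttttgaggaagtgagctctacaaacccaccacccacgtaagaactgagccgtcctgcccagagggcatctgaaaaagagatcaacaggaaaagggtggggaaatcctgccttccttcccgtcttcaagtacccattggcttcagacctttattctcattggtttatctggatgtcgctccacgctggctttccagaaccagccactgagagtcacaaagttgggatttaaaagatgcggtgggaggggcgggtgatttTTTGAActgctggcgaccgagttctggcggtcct
E2F letters were found in 744 of all 32841 promoters of this length (2.27%). In the replication list they were in 7 of 21 promoters of genes called lower (33.3%) and in 13 of 39 of the other tested genes (33.3%), so the share did not separate those that fell. Among G1 and G1/S regulators they were in 7 of 18 promoters of genes called lower (38.9%) and in 2 of 19 of the others (10.5%). CHR letters were found in 6313 of all promoters (19.2%). In the G2/M and mitosis list they were in 20 of 25 promoters of genes called lower (80%) and in 16 of 25 of the others (64%). Some genes have several promoters in the table, and a match describes letters and not a bound site. Mybl2 had no match in its window.

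Metabolic genes fell somewhat more often than genes at large. Of 344 tested genes in 14 lists 93 were called lower (27.0%, against 19.3% of all genes) and 65 higher (18.9%, against 26.1%), with a median log2 fold change of -0.40. Falls led in nucleotide synthesis (15 of 35 lower, 3 higher), aminoacyl-tRNA synthetases (9 of 20, none higher), cholesterol synthesis (10 of 22, 2 higher) and oxidative phosphorylation (16 of 71, 2 higher). Rises led in glycolysis (10 of 16 higher, 2 lower), the testis-specific isoforms (7 of 14, none lower) and fatty acid synthesis (8 of 20, 3 lower).

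Within glycolysis the rises included the liver-type phosphofructokinase gene Pfkl, with 4.02, 6.93 and 5.39 CPM in In/B and 97.7, 85.5 and 88.2 CPM in PL. Pfkl had a log2 fold change of 4.09 ± 0.22 (SE, edgeR adjusted p of 1.08e-05), the groups were far apart, and RA-deficient PL had 7.47, 2.25 and 8.78 CPM. Ldhb, the lactate dehydrogenase subunit that favours lactate use, had 6.20, 29.3 and 15.3 CPM in In/B and 328, 211 and 211 CPM in PL and 54.8, 39.1 and 62.7 CPM in RA-deficient PL. Ldha, the muscle-type subunit, had 6.09, 16.0 and 15.3 CPM in In/B and 198, 71.4 and 62.6 CPM in PL, with PL replicate 1 far above the others. With all libraries the log2 fold change of Ldha was 3.19, and without PL replicate 1 it was 2.47, and that of Ldhb was 3.92 and, without In/B replicate 2, 4.57. Gapdh and Gpi1 went the other way. Gpi1, glucose-6-phosphate isomerase, fell from 449 ± 58.4 to 112 ± 17.1 CPM, a log2 fold change of -1.96 ± 0.15 (SE), and Gapdh fell from 213 ± 6.87 to 75.3 ± 9.29 CPM. Pgk1, the X-linked phosphoglycerate kinase, was not called, at 9.09 ± 1.85 to 7.74 ± 2.25 CPM.

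In the list named for testis-specific isoforms 7 of 14 tested genes were called higher and none lower, and 4 had negative values. Pgk2, the autosomal retrogene copy of Pgk1, had 0, 1.11 and 0.281 CPM in In/B and 34.0, 21.1 and 15.5 CPM in PL, and a log2 fold change of 5.56 ± 0.79 (SE, edgeR adjusted p of 3.68e-04). Ldhc, the lactate dehydrogenase of spermatocytes and sperm, had 6.87, 33.4 and 35.2 CPM in In/B and 563, 182 and 170 CPM in PL. RA-deficient PL replicates 1 and 2 had 0.812 and 1.77 CPM of Ldhc, whereas replicate 3 had 91.5 CPM. Pgam2 rose from 6.33 ± 4.35 to 66.1 ± 36.4 CPM and Pdha2, the retrogene copy of the pyruvate dehydrogenase subunit, from 11.7 ± 2.66 to 37.5 ± 12.9 CPM. In all 4 genes PL replicate 1 was the highest, as it was for the pachytene marker sum. The log2 fold change of Ldhc was 3.64 with all libraries and 2.85 without PL replicate 1, and that of Pgk2 was 7.34 without In/B replicate 2. Per kilobase of exon, Ldhc made up 42.1%, 46.8% and 60.0% of the lactate dehydrogenase subunit transcripts (Ldha, Ldhb and Ldhc) in In/B and 56.4%, 42.2% and 40.9% in PL, so the shares of the groups overlapped. Ldhb made up 38.2%, 41.3% and 26.2% in In/B and 33.1%, 49.1% and 51.1% in PL.

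Single genes of mitochondrial metabolism fell or rose, while the shares of falls were near that of all genes (19.3%). Mdh2, the malate dehydrogenase of the citric acid cycle, fell from 353 ± 84.0 to 83.4 ± 10.7 CPM and Sdha, the catalytic subunit of succinate dehydrogenase, from 307 ± 16.2 to 130 ± 17.1 CPM, while Pdk1, a kinase that switches pyruvate dehydrogenase off, rose from 23.1 ± 1.93 to 90.3 ± 8.10 CPM. In the cycle list as a whole 5 of 26 fell (19.2%) and 4 rose (15.4%, against 26.1% of all genes). Among respiratory chain genes Ndufs8 (-2.04), Ndufa11 (-2.01) and Cyc1 (-1.72) had the largest falls on the log2 scale, and Ndufa1 (1.79) and Ndufv3 (1.14) rose. Ndufv3 lost its call without replicate 1 of In/B (1.00) or of PL (0.95). The median of the respiratory chain list was -0.55, with 22.5% of its genes called lower and 2.82% higher. Cpt1a, which admits fatty acids to mitochondria, was not called at 102 ± 4.24 to 79.8 ± 10.7 CPM. Fatty acid oxidation was mixed, with 4 of 22 higher (Acaa2 by 2.44, Hadh by 1.75) and 7 lower (Eci1 by -2.51). Acaa2 had 5.42, 8.15 and 8.03 CPM in In/B and 4.14, 6.62 and 7.04 CPM in RA-deficient PL. Hadh had 28.8, 33.2 and 32.2 CPM in In/B and 19.8, 17.5 and 21.6 CPM in RA-deficient PL. For neither gene was the RA-deficient mean above that of In/B. The part of Sertoli RNA in the rises of Acaa2 and Hadh was not tested.

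Genes of building-block synthesis fell more often than they rose in the nucleotide, tRNA synthetase and one-carbon lists, and rose more often in polyamine metabolism. Tyms, thymidylate synthase, had 45.0, 56.6 and 53.8 CPM in In/B and 7.96, 6.33 and 7.75 CPM in PL, and its log2 fold change was -2.77 ± 0.19 (SE, edgeR adjusted p of 1.52e-05). Dut, which keeps uracil out of DNA, fell from 110 ± 28.3 to 19.9 ± 10.6 CPM. Against the direction of its list, Adss, the first enzyme from IMP to AMP, rose from 57.1 ± 6.92 to 218 ± 26.8 CPM, and it was as high in RA-deficient PL (194, 211 and 285 CPM). Rrm2b, the ribonucleotide reductase subunit used outside S phase, rose from 15.9 ± 3.72 to 38.4 ± 7.89 CPM. Of the tRNA synthetases, Tars fell by 2.14, Gars by 1.93 and Iars by 1.85 on the log2 scale. In polyamine metabolism 4 of 10 genes rose and 1 fell. Srm, spermidine synthase, fell from 56.2 ± 4.66 to 15.9 ± 1.73 CPM, whereas Odc1, the entry enzyme of polyamine synthesis, rose from 59.2 ± 10.00 to 122 ± 10.5 CPM and the polyamine-degrading Smox from 8.67 ± 1.25 to 37.2 ± 5.95 CPM. Odc1 was at 1.09 on the log2 scale with all libraries and at 0.95, under the threshold, without In/B replicate 1. In serine, glycine and one-carbon metabolism 4 of 26 rose and 7 fell. Phgdh, the entry to serine synthesis, was not called at 23.2 ± 8.74 to 26.2 ± 1.17 CPM, and the folate enzyme Mthfd1 fell from 65.7 ± 5.78 to 23.6 ± 1.10 CPM. Folr1, a folate receptor, rose from 1.42 ± 1.02 to 26.4 ± 5.46 CPM while the folate carrier Slc19a1 fell from 22.5 ± 0.916 to 5.38 ± 0.623 CPM. Folr1 was at 4.22 on the log2 scale, and at 4.81 without In/B replicate 2. RA-deficient PL had 2.15, 1.73 and 4.55 CPM of Folr1.

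Sterol and fatty acid genes parted ways. In cholesterol synthesis Insig1, the sensor that holds SREBP back, fell by 2.13, Mvd by 1.92 and Hsd17b7 by 1.80 on the log2 scale, and Sqle, a controlled enzyme of the pathway, was not called (-0.62). Ebp, a sterol isomerase, rose from 3.05 ± 1.24 to 27.2 ± 4.04 CPM and stood at 0.568, 1.69 and 2.10 CPM in RA-deficient PL. In fatty acid synthesis the desaturase Scd2 had 56.2, 79.1 and 61.1 CPM in In/B and 648, 461 and 442 CPM in PL, a log2 fold change of 3.03 ± 0.20 (SE, edgeR adjusted p of 1.25e-05). Scd2 stood at 71.4, 69.1 and 81.8 CPM in RA-deficient PL, near the In/B level. Acsl6 rose from 4.11 ± 1.96 to 38.0 ± 17.2 CPM, with 8.93, 6.91 and 9.67 CPM in RA-deficient PL. Fads1 fell from 164 ± 47.1 to 77.0 ± 18.7 CPM. Fads1 (-1.04) lost its call without In/B replicate 2 (-0.94) or 3 (-0.93) and without PL replicate 2 (-0.97) or 3 (-0.93).

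In glutathione and thioredoxin systems 10 of 33 genes rose and 10 fell. The glutathione S-transferases Gstm2 (16.8 ± 11 to 209 ± 39.6 CPM), Gsta4 (12.1 ± 1.41 to 99.3 ± 23.1 CPM) and Gstm1 (30.7 ± 12.7 to 216 ± 34.2 CPM) rose, and in RA-deficient PL they were at 38.6, 24.9 and 61.5 CPM, 17.3, 15.9 and 25.8 CPM and 53, 39.4 and 78.7 CPM. Gstm2 was at 3.67 on the log2 scale, and at 4.26 without In/B replicate 2. Catalase (Cat) fell from 117 ± 10.2 to 21.2 ± 2.46 CPM, glutathione reductase (Gsr) from 212 ± 58.3 to 46.7 ± 4.71 CPM and the peroxiredoxin Prdx1 from 422 ± 8.56 to 139 ± 5.55 CPM. In pentose phosphate metabolism 2 of 7 rose and 2 fell. Tkt rose by 1.88 and Pgd by 1.15 on the log2 scale, and Rpia and Taldo1 fell by 1.31 and 1.15 on the log2 scale. Of 22 genes of amino acid supply and stress response 5 rose (Gpt2 by 2.22, Sesn2 by 1.96) and 6 fell (Slc43a1 by 2.62, Slc1a5 by 2.02). Without In/B replicate 1 the value of Slc43a1 was -2.02.

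**Figure D4:**
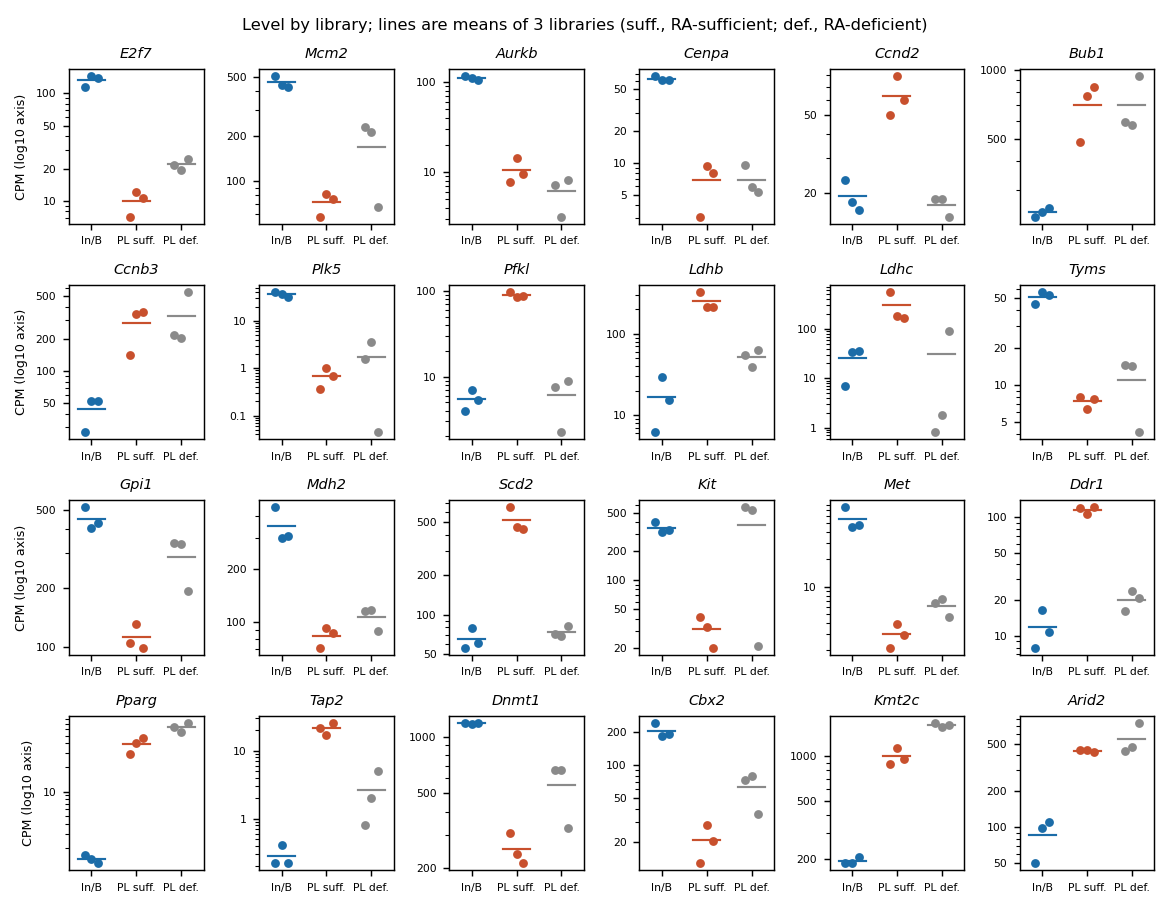
Level of 24 genes by library, in CPM on log10 axes, with 1 point per library for In/B, RA-sufficient PL and RA-deficient PL and a horizontal line at each group mean. Kit, Aurkb and Mcm2 are lower in all RA-sufficient PL libraries than in any In/B library, Pfkl and Ddr1 are high in RA-sufficient PL alone, and Pparg and Kmt2c are high in both PL groups.

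Of 428 tested signalling genes in 13 lists 107 rose (25.0%, against 26.1% of all genes) and 110 fell (25.7%, against 19.3%), with a median log2 fold change of -0.08. Cyclic nucleotide signalling (19 of 44 higher, 11 lower) and antigen processing (9 of 15 higher, 2 lower) leaned to rises, and hedgehog signalling (6 of 15 lower, 2 higher), NOTCH signalling (10 of 29 lower, 4 higher), TGF-beta signalling (11 of 33 lower, 5 higher) and the KIT, PI3K and mTOR list (8 of 28 lower, 2 higher) to falls.

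In the list of growth factor receptors 14 of 43 genes rose and 10 fell, and Kit was counted in the KIT, PI3K and mTOR list instead. Kit, the receptor for stem cell factor that differentiating spermatogonia need, had 404, 319 and 329 CPM in In/B and 41.1, 32.6 and 20.0 CPM in PL. Every PL library was far below every In/B library, with a log2 fold change of -3.45 ± 0.26 (SE, edgeR adjusted p of 1.91e-05). Met, the receptor of hepatocyte growth factor, had 74.9, 45.5 and 47.4 CPM in In/B and 2.14, 3.86 and 2.98 CPM in PL, and Ntrk3, the neurotrophin-3 receptor, had 32.7, 31.1 and 26.6 CPM in In/B and 1.84, 1.81 and 1.23 CPM in PL. Ptk7 fell by 3.15 on the log2 scale. Downstream of KIT, the PI3K subunit Pik3r2 fell from 145 ± 10.2 to 35.2 ± 0.965 CPM and the mTOR target Eif4ebp1 from 47.5 ± 12.9 to 7.26 ± 0.499 CPM, and Foxo1 fell from 198 ± 16.2 to 68.4 ± 5.01 CPM. Foxo3 (-0.36) and Mtor (0.72) were not called. Other receptors rose, with Axl from 13.7 ± 7.71 to 197 ± 18.2 CPM, the collagen receptor Ddr1 from 11.8 ± 4.46 to 116 ± 7.38 CPM and the insulin receptor Insr from 3.45 ± 0.575 to 25.9 ± 4.88 CPM. Axl stood at 13.8, 9.03 and 19.9 CPM and Ddr1 at 16.1, 23.7 and 21.0 CPM in RA-deficient PL.

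Of 37 RAS, MAPK and immediate early genes 7 rose and 8 fell. Dusp6, a phosphatase that ERK signalling induces, rose from 7.84 ± 4.38 to 31.0 ± 3.04 CPM and Etv5, an ETS factor downstream of FGF and GDNF signalling, from 9.90 ± 3.71 to 37.1 ± 0.176 CPM. Fosl2 had the largest fall of the list, from 38.1 ± 6.45 to 3.27 ± 0.916 CPM, and Mycn and Mycl fell by 1.92 and 2.11 on the log2 scale. Myc had at most 0.618 CPM in In/B and PL and was not tested. Fos (23.7, 6.49 and 7.64 CPM in In/B and 12.9, 20.3 and 17.1 CPM in PL) and Egr1 (118, 53.7 and 53.4 CPM in In/B and 38.3, 76.7 and 85.8 CPM in PL) were not called, and In/B replicate 1 was the highest library for both. Without it Fos was called higher in PL, with a log2 fold change of 1.29 against 0.46, and the value of Egr1 changed sign from -0.12 to 0.36.

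The ligand and transcription factors of the hedgehog pathway moved in opposite directions. The factors Gli2 and Gli3 fell, Gli2 with 69.5, 67.4 and 66.2 CPM in In/B and 8.77, 4.16 and 1.23 CPM in PL and Gli3 from 122 ± 12.1 to 19.2 ± 6.55 CPM, and so did Kif7, a regulator of GLI proteins, from 105 ± 8.64 to 26.3 ± 1.72 CPM. The ligand Dhh, a Sertoli cell product that is in the Sertoli marker list, rose from 4.06 ± 3.41 to 78.6 ± 16.4 CPM. In RA-deficient PL, Gli2 was at 92.7, 95.3 and 2.63 CPM, so its replicate 3 was as low as RA-sufficient PL. Gli2 had a log2 fold change of -3.84 and, without PL replicate 1, -4.66, and that of Dhh was 4.29 and, without In/B replicate 2, 5.14. In TGF-beta signalling the ligand Bmp7 fell from 58.1 ± 19.7 to 6.82 ± 3.53 CPM, the activin receptor Acvr2b from 131 ± 4.61 to 23.6 ± 2.18 CPM and Smad1 from 68.6 ± 7.86 to 14 ± 7.33 CPM, and Smad3 was not called (-0.40). Bmpr2 rose from 101 ± 27.7 to 251 ± 22.0 CPM, and Inhbb, an inhibin subunit in the Sertoli list too, from 7.40 ± 2.38 to 79.4 ± 18.7 CPM. Id1, a BMP target, was at most 1.69 CPM in any of the 6 libraries and was not called.

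In WNT signalling 8 of 45 genes rose and 11 fell. Rspo4, a secreted enhancer of WNT signals, fell from 40.2 ± 6.75 to 4.29 ± 1.12 CPM, and Nkd2, an inhibitor in the responding cell, from 44.2 ± 3.49 to 6.80 ± 4.80 CPM. Porcn, which lipid-modifies WNT proteins, rose from 7.56 ± 2.93 to 31.6 ± 4.50 CPM and Dkkl1, a protein of spermatocytes and the acrosome, from 9.21 ± 3.29 to 115 ± 59.2 CPM. The NOTCH ligand gene Jag1 fell from 63.0 ± 8.51 to 11.7 ± 5.09 CPM and the target Hey1 from 26.1 ± 10.7 to 7.28 ± 3.67 CPM, while Notch1 rose from 32.2 ± 15.8 to 72.6 ± 5.17 CPM and the regulator Dtx1 from 5.53 ± 2.19 to 98.1 ± 13.2 CPM. Dtx1 was at 17.9, 8.55 and 23.8 CPM in RA-deficient PL, and Notch1 at 26.1, 22.3 and 32.1 CPM. Notch1 (1.22) was under the threshold without In/B replicate 3 (0.99), and the value of Nkd2 moved from -2.68 to -3.40 without PL replicate 1. In the Hippo pathway 3 of 23 rose and 7 fell. The tumour suppressor Nf2 rose from 86.9 ± 6.86 to 407 ± 7.77 CPM, with 285, 313 and 440 CPM in RA-deficient PL, the YAP target Ctgf from 0.740 ± 0.489 to 8.43 ± 2.07 CPM (log2 fold change 3.58, and 4.17 without In/B replicate 3), and the factor Tead3 fell from 24.7 ± 3.48 to 8.0 ± 1.46 CPM.

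Cyclic nucleotide signalling genes moved in both directions. Among genes that make or break down cAMP, Adcy1 had 32.4, 23.8 and 21.3 CPM in In/B and 1.11, 1.33 and 1.75 CPM in PL, Pde1b fell by 3.74 and Pde4a by 2.37 on the log2 scale, and Pde10a rose from 2.10 ± 1.70 to 39.9 ± 25.7 CPM. Prkg1, a cGMP-dependent kinase, rose from 1.08 ± 0.409 to 10.8 ± 2.41 CPM, and the sperm kinase anchor Akap3 from 0.764 ± 0.231 to 11.1 ± 3.28 CPM. In calcium signalling 16 of 51 rose and 10 fell. The channel gene Cacna1c fell from 112 ± 3.55 to 19.7 ± 4.27 CPM and the kinase Camk4 from 30.5 ± 8.54 to 2.91 ± 1.10 CPM. Itpr2, a calcium release channel of the endoplasmic reticulum, had 1.95, 3.28 and 1.46 CPM in In/B and 40.1, 44.4 and 39.0 CPM in PL and 2.76, 0.522 and 0 CPM in RA-deficient PL. The testis-specific calcineurin subunit gene Ppp3r2 and the sperm channel gene Catsperb rose by 4.32 and 3.56 on the log2 scale, and PL replicate 1 was the highest library for both. Without PL replicate 1 the values were 3.62 and 2.89, and that of Pde10a was 3.59 in place of 4.25. Leaving out In/B libraries moved Pde10a to 4.94 (replicate 2) and Catsperb to 4.15 (replicate 3).

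Antigen processing genes had a median log2 fold change of 1.96. Tap2 (chromosome 17, 34340472 to 34353266) had 0.223, 0.406 and 0.225 CPM in In/B and 21.8, 17.4 and 25.9 CPM in PL, and its log2 fold change was 6.21 ± 0.36 (SE, edgeR adjusted p of 1.10e-05). The MHC class I gene H2-D1 had 3.69, 4.61 and 4.33 CPM in In/B and 93.2, 210 and 213 CPM in PL, and RA-deficient PL had 55.3, 51.1 and 221 CPM. H2-T23, a nonclassical class I gene, rose from 0.273 ± 0.155 to 11.7 ± 2.03 CPM. The immunoproteasome subunit Psmb10 fell from 16.5 ± 4.00 to 5.68 ± 1.48 CPM. Class I genes are closely related copies, so reads may have been shared among them. Macrophage and blood cell markers rose beside these genes, with Lyz2, the lysozyme of macrophages, at 0.335, 0.184 and 0.225 CPM in In/B and 1.77, 4.34 and 5.03 CPM in PL, and their part in the rises was not tested. In cytokine and JAK-STAT signalling 9 of 34 rose (26.5%, against 26.1% of all genes) and 7 fell (20.6%, against 19.3%). These shares were close to those of all genes. The interferon-gamma receptor genes Ifngr1 and Ifngr2 rose by 1.24 and 2.06 on the log2 scale, and the kinase Tyk2 and the inhibitors Socs1 and Socs5 fell by 1.76, 2.09 and 1.68.

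Nuclear receptor genes were divided, with 9 of 31 higher and 9 lower. Pparg, a receptor for fatty acids, had 1.62, 1.44 and 1.29 CPM in In/B and 29.1, 39.8 and 47.1 CPM in PL, and its log2 fold change was 4.78 ± 0.27 (SE, edgeR adjusted p of 1.10e-05). RA-deficient PL had 63.8, 55.0 and 72.1 CPM. Rxra, the common partner of RA and PPAR receptors, fell from 111 ± 20.8 to 17.5 ± 5.54 CPM and Rarg, the RA receptor of spermatogonia, from 92.9 ± 13.7 to 21.3 ± 1.79 CPM, while Rara was not called at 45.2 ± 13.1 to 58.2 ± 0.980 CPM. The vitamin D receptor Vdr rose from 4.54 ± 3.27 to 82.3 ± 19.6 CPM, and in RA-deficient PL it was near the In/B level (8.20, 5.98 and 6.78 CPM).

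Chromatin genes changed less often than genes at large. Of 254 tested genes in 10 lists 36.2% were called, against 45.4% of all, with 51 lower, 41 higher and a median log2 fold change of -0.13. DNA methylation (8 of 22 lower, 3 higher), Polycomb repressive complex 1 (10 of 29 lower, 4 higher) and histone chaperones (6 of 22 lower, 1 higher) leaned to falls, and histone demethylases (8 of 23 higher, none lower) to rises.

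The maintenance DNA methyltransferase Dnmt1 was at a high level and fell. It had 1177, 1167 and 1186 CPM in In/B and 307, 239 and 213 CPM in PL, and the log2 fold change was -2.17 ± 0.15 (SE, edgeR adjusted p of 1.51e-05). RA-deficient PL had 667, 667 and 329 CPM, between the groups in every library. Its cofactor Uhrf1 fell from 299 ± 36.0 to 122 ± 28.6 CPM and the de novo methyltransferase Dnmt3b from 112 ± 43.9 to 20.7 ± 6.31 CPM. The 5-methylcytosine dioxygenases parted, since Tet3 fell from 262 ± 15.4 to 71.0 ± 13.6 CPM while Tet1 and Tet2 rose from 1.28 ± 0.333 to 5.39 ± 0.766 CPM and from 6.73 ± 2.97 to 25.8 ± 5.66 CPM.

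In Polycomb repressive complex 1, Cbx2, a reader of H3K27 methylation, had 245, 185 and 194 CPM in In/B and 12.7, 28.5 and 20.4 CPM in PL, a log2 fold change of -3.29 ± 0.28 (SE, edgeR adjusted p of 3.24e-05). Sfmbt2 and Cbx8 fell by 2.41 and 2.31 on the log2 scale, whereas Pcgf6, a subunit of the variant complex that silences meiotic genes, rose from 14.1 ± 0.622 to 45.7 ± 6.29 CPM, and Phc1 from 242 ± 31.9 to 516 ± 106 CPM. In Polycomb repressive complex 2 only Jarid2 (1.43) and Phf19 (-2.56) were called of 11 tested, and the catalytic subunit Ezh2 was not, at 126 ± 35.0 to 126 ± 5.70 CPM.

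Histone methyltransferases went both ways, with 7 of 39 higher and 8 lower. Kmt2c, a methyltransferase of enhancers, had 190, 189 and 207 CPM in In/B and 886, 1142 and 956 CPM in PL, and 1679, 1566 and 1622 CPM in RA-deficient PL. The PL libraries of both kinds were all above all In/B libraries, and the log2 fold change was 2.40 ± 0.13 (SE, edgeR adjusted p of 1.08e-05). Prmt5, an arginine methyltransferase, fell from 248 ± 10.2 to 75.5 ± 6.77 CPM, Ehmt1, an H3K9 methyltransferase, from 232 ± 18.1 to 87.9 ± 4.46 CPM and Kmt5a, which methylates H4K20, from 218 ± 18.4 to 81.3 ± 18.6 CPM. The demethylases Kdm4d and Kdm4b, which act on H3K9, rose by 3.29 and 2.60 on the log2 scale. Of 40 histone acetylation and bromodomain genes 4 rose and 7 fell. Hdac2 and Hdac11 fell by 1.77 and 2.20, Hdac1 was not called (-0.43), and the acetyltransferase Kat2b rose from 8.81 ± 0.0600 to 26.3 ± 6.95 CPM. The testis bromodomain gene Brdt had 64.6, 87.9 and 102 CPM in In/B and 158, 109 and 98.0 CPM in PL and was not called.

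In the SWI/SNF list 3 of 22 rose and 5 fell, and among other remodellers 5 of 30 rose and 3 fell. Arid2, which marks the PBAF form of SWI/SNF, had 50.2, 99.2 and 110 CPM in In/B and 446, 440 and 426 CPM in PL and 432, 468 and 747 CPM in RA-deficient PL. The ATPase genes differed, as Smarca2 rose from 51.3 ± 8.21 to 202 ± 63.5 CPM and Smarca4 was not called at 447 ± 48.0 to 715 ± 168 CPM, and the core subunit Smarcc1 fell from 610 ± 60.0 to 149 ± 11.3 CPM. Chd9 rose from 9.28 ± 2.11 to 69.2 ± 4.00 CPM, with 195, 199 and 278 CPM in RA-deficient PL, and the NuRD subunit Mta1 fell from 228 ± 10.8 to 43.9 ± 8.67 CPM. The chaperones Anp32a and Anp32b fell from 147 ± 12.3 to 33.8 ± 0.816 CPM and from 715 ± 33.2 to 159 ± 19.2 CPM. Of 18 linker and variant histone genes 6 rose and 3 fell. H2afv fell from 158 ± 8.93 to 46.9 ± 9.04 CPM and H3f3a from 128 ± 8.88 to 49.7 ± 5.99 CPM, and H2afx, the damage-responsive variant, was not called at 16.1 ± 3.87 to 22.2 ± 4.65 CPM. The libraries were made with a kit for poly(A) mRNA, which captures few transcripts of replication-dependent histones, since these end without a poly(A) tail.

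Families of genes were also defined by name alone, and their counts stand against 26.1% of all genes called higher and 19.3% called lower. Solute carriers were called higher in 96 of 260 and lower in 44, with rises of the fructose transporter Slc2a5 (from 3.75 ± 2.18 to 99.0 ± 39.6 CPM) and of Slc6a14 and Slc34a2 (log2 fold changes 4.92 and 4.81) and a fall of Slc29a4 (-3.63). Without In/B replicate 1 that fall was -2.62, and without In/B replicate 3 the value of Slc34a2 was 5.67. Zinc finger genes went the other way, with 107 of 388 lower and 52 higher, among them falls of Zfp36l1 (from 130 ± 2.95 to 19.3 ± 4.47 CPM), which destabilizes mRNAs, and rises of Zfp654 and Zfp541 (from 26.8 ± 10.9 to 225 ± 14.5 CPM and from 40.6 ± 14.4 to 336 ± 68.5 CPM). Zfp654 and Zfp541 were at 158, 178 and 300 CPM and 272, 275 and 421 CPM in RA-deficient PL. RNA polymerase subunits fell in 12 of 28 and rose in none (Polr2d -1.81, Polr1b -1.67), and proteasome subunits fell in 14 of 39 and rose in 2 (Psmd5 -2.49, Psmb3 -2.06). Mitochondrial ribosomal proteins fell in 14 of 78 and rose in 1 (Mrps18a). Splicing factors of the SR and hnRNP families were called in 3 of 31, and nucleoporins in 3 of 21.

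Among structural families, kinesins fell in 15 of 42 and rose in 8, with Kif5a at a log2 fold change of -2.31 and Kif21a at 3.18. Tubulins and tubulin ligases rose in 13 of 34 and fell in 9, with Tuba1a from 10.1 ± 4.50 to 173 ± 48.4 CPM and gamma-tubulin Tubg1 from 174 ± 13.3 to 33.5 ± 2.66 CPM. Collagens and laminins rose in 20 of 50 and fell in 8. Col18a1 rose from 31.9 ± 14.4 to 344 ± 36.2 CPM, with 53.1, 61.4 and 72.5 CPM in RA-deficient PL. Lama5 and Col1a1 fell by 2.07 and 2.22 on the log2 scale. Claudins, cadherins and protocadherins rose in 11 of 28 and fell in 6. Among the rises were Pcdh17 (5.09) and Cldn11 (4.26), a tight junction protein of Sertoli cells and one of the Sertoli markers. ADAM proteases rose in 10 of 19 and fell in 4. The rises of Adam32 and Adam3 were from 4.78 ± 3.41 to 96.5 ± 63.0 CPM and from 6.55 ± 5.38 to 120 ± 84.4 CPM, with log2 fold changes of 4.36 and 4.23 (3.69 and 3.49 without PL replicate 1, the highest library for both), and Adam15 fell from 134 ± 11.4 to 40.0 ± 4.14 CPM. Deubiquitinases of the Usp family rose in 11 of 51 (21.6%) and fell in 9 (17.6%), with Usp9x from 179 ± 26.7 to 755 ± 80.6 CPM and Usp7 from 699 ± 54.9 to 230 ± 19.4 CPM. F-box genes rose in 17 of 64 (26.6%) and fell in 9 (14.1%), and Fbxo47 had 1.62, 2.99 and 4.10 CPM in In/B and 71.9, 154 and 183 CPM in PL and 62.6, 72.7 and 200 CPM in RA-deficient PL. Tripartite motif genes rose in 17 of 51 and fell in 8, with Trim52 from 11.1 ± 3.03 to 158 ± 53 CPM. DnaJ chaperones rose in 11 of 41 (26.8%) and fell in 4 (9.76%), and potassium channels rose in 12 of 57 and fell in 19. Integrins rose in 5 of 23 (21.7%) and fell in 4 (17.4%). Regulatory subunits of protein phosphatase 1 rose in 8 of 35 (22.9%) and fell in 7 (20.0%). Of 7 tudor domain genes Tdrd6 rose (3.76, and 2.99 without PL replicate 1) and Tdrd9 fell (-1.47). The shares of rises in the F-box, DnaJ, Usp, integrin and protein phosphatase 1 families were close to, or under, the 26.1% of all genes.

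By chromosome, the share called higher ran from 19.8% (chromosome 4, 187 of 944 genes) to 30.0% (chromosome 3, 205 of 683), and the share called lower from 14.6% (chromosome 13, 75 of 512) to 24.7% (chromosome 4, 233 of 944). On the X chromosome 29.7% of 576 genes were called higher and 22.2% lower, with a median log2 fold change of 0.04, equal to that of all genes. These shares are descriptions with no test.

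The 12 largest rises and falls and the 45 fixed genes were also compared between RA-deficient and RA-sufficient PL, by edgeR in a fit of these groups over 15352 genes. In this comparison 2383 genes were called (15.5%), 687 higher and 1696 lower in RA-deficient PL. Of the 56 named genes tested 17 were called, 12 lower and 5 higher in RA-deficient PL, and 4 were called when the test was against a fold change of 2. RA-deficient replicate 3 stood apart, with 20.7 CPM of Kit where the other 2 libraries had 569 and 528 CPM. Without that library 23 of the 56 were called, 16 lower and 7 higher, and 16 were called in both fits. Ldha was lower in RA-deficient PL by 2.85 on the log2 scale (SE 0.72, edgeR adjusted p of 0.0283), and Dnmt1 and Foxo1, which fell from In/B to RA-sufficient PL, were higher by 1.10 and 1.14. Mcm2 (1.22) and Ldhc (-3.35) were not called with all libraries and were called without RA-deficient replicate 3 (1.61 and -7.89). Genes with no call in either fit included Rad51ap2 (-0.14, SE 0.39) and Pparg (0.69, SE 0.21), and a missing call does not show that they were alike. Stra8, a gene that RA induces and that marks meiotic entry, had 54.3, 161 and 149 CPM in In/B and 445, 125 and 120 CPM in PL and 383, 370 and 83.1 CPM in RA-deficient PL. It was called in neither comparison, and 1 library of each PL group stood far from the other 2. The log2 fold change from In/B to RA-sufficient PL was 0.97, and 0.06 without PL replicate 1.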

How the data were processed

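RNA from sorted germ cells was sequenced in 9 libraries. The authors trimmed reads with cutadapt 1.9, aligned them to mm9 with STAR 2.5.2b and counted them per gene with featureCounts (per the study's methods and processing notes), and they deposited raw counts of 24505 genes. No strand setting is given in the sources used here. Total counts were 12612959 to 27042274 per library. Groups came from the sample titles.

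The deposited counts were tested with edgeR 4.0.16 (R 4.3.3; TMM scaling, filterByExpr, quasi-likelihood test, Benjamini-Hochberg adjustment over all genes tested) on In/B and RA-sufficient PL alone, and separately on both PL groups. A call needs a log2 fold change beyond 1 or -1 with an adjusted p below 0.05. On simulated counts for the 14775 genes with values, the test recovered 157 of 200 changed genes with 11 false calls. The planted changes were all of the same absolute size and far fewer than the 6803 genes called here. These figures therefore do not give the accuracy of the calls. Members, gene lists and markers were chosen with earlier results of these data known, so no list was tested and counts stand beside those of all genes. Named genes are the 6 largest rises and falls with at least 10 CPM and groups that did not overlap. Others are genes from the 3 largest called rises and falls of each list with at least 5 CPM, and fixed genes given whatever their values. Genes that share exon bases with another gene were not named, which left out 7 of the fixed genes. A few items of these lists are not reported here. CPM were computed on a TMM scale over all 9 libraries and per kilobase by exon length. Gene coordinates are those of GENCODE on NCBIM37 (mm9), matched by 20531 current and 1715 older names, with 2259 unmatched. Promoters are from RefSeq on GRCm38.p6. Alternatives were RLE and library-size scaling, other filters, DESeq2 1.42.0, all 9 libraries in 1 fit, a replicate block, stricter thresholds and each library left out.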

Additional observations from a re-analysis of the deposited data

Results flagged for a closer look

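The genes below differed between RA-deficient and RA-sufficient PL spermatocytes, among the 12 largest changes and the fixed genes of the transition from In/B. Each difference was tested with edgeR's quasi-likelihood test, is given on the log2 scale as RA-deficient minus RA-sufficient, and passed an adjusted p of 0.05 over all 15352 genes with an absolute value above 1. The Sertoli marker sum was 586 to 913 CPM in RA-deficient and 4005 to 5516 CPM in RA-sufficient PL, and its part in these differences was not tested.

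Genes higher in RA-deficient PL were Kit (3.54), Rarg (1.74), Egr1 (1.31), Foxo1 (1.14) and Dnmt1 (1.10). Kit, Rarg, Foxo1 and Dnmt1 had fallen from In/B to RA-sufficient PL. Kit had 569, 528 and 20.7 CPM in RA-deficient PL and 41.1, 32.6 and 20.0 CPM in RA-sufficient PL. RA-deficient replicate 3 thus lay within the RA-sufficient range of Kit. Genes lower in RA-deficient PL that had risen from In/B were Oit3 (-8.76), Ibsp (-4.51), Tap2 (-3.07), Ldha (-2.85), Ccnd2 (-1.88) and Notch1 (-1.47). Sowahd had 0 counts in the RA-deficient libraries and was at least 260-fold higher in RA-sufficient PL, with a floor of 3 counts over the group. Cdk1 (-1.03) had fallen from In/B and was lower still in RA-deficient PL. Cdkn1a (-1.88), Phgdh (-1.26) and Cpt1a (-1.01) had no call between In/B and RA-sufficient PL. Cdkn2d had 2 counts over the RA-deficient libraries and 61 over the RA-sufficient ones, a ratio of 41.4 with an exact interval of 11 to 350 for counting error only. Cpt1a was the gene called here that was under the fold threshold without RA-deficient replicate 3.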

How the results depend on the processing

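The number of genes called from In/B to RA-sufficient PL was 6803, and between 6553 and 6837 with any 1 of the 6 libraries left out (3744 to 3964 higher, 2752 to 2955 lower). It was 6806 with RLE size factors, 6824 by library size alone, 7263 without a filter on low counts, 5488 at a mean of at least 50 counts, 5689 with all 9 libraries in 1 fit, 7305 with DESeq2 and 5963 at an adjusted p of at most 0.01. With both replicates numbered 1 removed, an alternative chosen after seeing the data, it was 7015. A test against a fold change of 2 called 4600 genes, of which 1755 were lower (2895 in the main test), with 61 metabolic genes lower in place of 93, 71 signalling genes lower in place of 110, and 4 in place of 17 named genes between the PL groups. This test asks for a fold above 2 beyond error and so calls fewer genes by construction. The median log2 fold change of all genes was 0.04, and 0.16 with DESeq2 and 0.15 without the filter.

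Same-numbered libraries of In/B and PL did not deviate together (correlations of deviations across genes -0.27, -0.174 and -0.166). Whether they shared a preparation or batch cannot be read from these correlations. With the replicate number as a block 6373 genes were called, 3646 higher and 2727 lower.

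Among the 236 genes tested, 5 without a call changed sign in 1 or more alternatives. Cdkn1a was at 0.07, 0.09 and 0.10 without In/B replicate 3 and PL replicates 2 and 3, and ran from -0.67 to 0.10 with any library left out. Egr1 was at 0.36 and 0.15 without In/B and PL replicate 1, and at 0.60 without both. Ezh2 (-0.18 to 0.17 with any library left out) was at -0.18 without In/B replicate 1 and at -0.20 without both replicates numbered 1, where Cdkn2d was at -0.29 and Stra8 at -0.34. With all 9 libraries in 1 fit, Ldhc, Adam3, Catsperb, Ccna1, Ppp3r2, Fads1 and Chaf1b lost their calls (adjusted p of 0.0550, 0.0568, 0.105, 0.0709, 0.0650, 0.0913 and 0.00990 from edgeR, Chaf1b by its fold of 0.98). Of the list medians 29 of 945 alternative values had the other sign, in 8 lists whose medians were at most 0.15 from 0. Total counts of 12612959 to 27042274 put 3 counts at 0.1109 to 0.2379 CPM before scaling, and differences below that level were not detectable.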
